A study of Rattus norvegicus with 24 samples.

Results

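The genes of the mitochondrial respiratory chain and ATP synthase were followed in the medial gastrocnemius, a mixed and mostly fast calf muscle, of 24 male Wistar rats. Members were all genes whose symbol begins with Nduf followed by a, b, c, s or v, with Uqcr, with Cox4 to Cox8 or with Atp5, together with Sdha, Sdhb, Sdhc and Sdhd. The deposited table held 85 such genes among 10851. By symbol they were 36 complex I subunits, 7 complex I assembly factors, 4 complex II, 7 complex III, 13 complex IV and 18 complex V genes. Ndufa4 and its paralog Ndufa4l2 are counted with complex I by symbol, although the Ndufa4 protein is known as a subunit of complex IV. The 4 groups of 6 rats were saline sedentary (Sed), saline with treadmill exercise (Ex), monocrotaline sedentary (CC-Sed) and monocrotaline with treadmill exercise (CC-Ex). CC stands for cardiac cachexia, the muscle wasting that accompanies heart failure. A single monocrotaline injection damages the vessels of the lung and overloads the right ventricle, so the model is one of right heart failure. Training ran alongside the disease, and muscle was taken from the left leg. No rat carried a genetic change. The study asked what CC does to the muscle transcriptome and whether aerobic training alters it.

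Complexes I, III and IV pass electrons from nutrients to oxygen and pump protons out of the matrix, complex II feeds electrons in from succinate without pumping, and complex V uses the returning protons to make ATP. Most subunits are encoded in the nucleus, while a small set is encoded by mitochondrial DNA (mtDNA), so complexes I, III, IV and V are built from both genomes and complex II from nuclear genes alone. Assembly factors help to build the complexes and are not part of the finished enzyme. Slow and oxidative fibres hold more mitochondria than fast glycolytic fibres, and endurance training is known to raise mitochondrial content in muscle.

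Total estimated counts per rat lay between 37816239 and 50350554. The members took between 1.15% and 2.92% of them and the mtDNA-encoded genes between 9.74% and 27.3%. Levels are given as CPM (counts scaled to a common library total) after TMM scaling, which corrects library size for composition, and differences as Log2FC with the first-named group minus the second. The fast fibre markers of the tissue were abundant, 7 of 9 being in the table at a summed level of 68020 to 190596 CPM. Of the markers of slow fibres, 5 of 8 were in the table. In bulk muscle, fewer fibres of a type and less RNA per fibre cannot be told apart. CPM values are not corrected for gene length and are not compared between genes here.

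No member was past the test in CC-Sed vs. Sed or in CC-Ex vs. Ex, whereas 4 members with Nduf symbols were past it once both CC groups were set against both saline groups, and all 4 were lower in CC. They were the assembly factors Ndufaf2, Ndufaf5 and Ndufaf7 of complex I and Ndufa4l2, the paralog of a complex IV subunit. A gene was past the test with an adjusted p under 0.05 (edgeR quasi-likelihood test, Benjamini-Hochberg over all 10851 genes). The background in the pooled comparison was 27.8% of all genes, and 10.6% of all genes were past the test and lower in CC, so the 4 of 85 lay under both shares. None of the 4 reached the size of a DEG, a Log2FC of at least 1 in either direction, which 2.88% of all genes did.

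The sequences just upstream of these 4 genes are shown because they are the members past the test. Each line gives the 250 bases before the transcript start from RefSeq on build GRCr8, 5′ to 3′ in the direction of the gene, and capitals mark matches to a motif of nuclear respiratory factor 1 (NRF1).
Ndufaf2, chr2:41380764-41381013, minus strand: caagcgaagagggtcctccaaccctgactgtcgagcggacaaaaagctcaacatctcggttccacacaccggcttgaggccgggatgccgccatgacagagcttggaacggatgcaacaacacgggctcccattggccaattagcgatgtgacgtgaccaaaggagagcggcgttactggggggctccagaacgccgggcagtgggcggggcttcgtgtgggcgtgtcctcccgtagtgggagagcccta
Ndufaf5, chr3:147961362-147961611, plus strand: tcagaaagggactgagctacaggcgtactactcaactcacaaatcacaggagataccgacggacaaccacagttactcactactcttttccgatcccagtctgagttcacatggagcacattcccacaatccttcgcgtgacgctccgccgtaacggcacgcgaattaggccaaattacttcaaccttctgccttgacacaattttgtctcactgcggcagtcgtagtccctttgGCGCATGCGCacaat
Ndufaf7, chr6:21871966-21872215, minus strand: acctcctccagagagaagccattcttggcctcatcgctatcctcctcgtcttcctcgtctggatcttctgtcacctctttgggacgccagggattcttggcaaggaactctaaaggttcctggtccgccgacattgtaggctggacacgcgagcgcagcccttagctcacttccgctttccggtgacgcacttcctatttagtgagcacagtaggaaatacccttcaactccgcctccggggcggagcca
Ndufa4l2, chr7:65241919-65242168, plus strand: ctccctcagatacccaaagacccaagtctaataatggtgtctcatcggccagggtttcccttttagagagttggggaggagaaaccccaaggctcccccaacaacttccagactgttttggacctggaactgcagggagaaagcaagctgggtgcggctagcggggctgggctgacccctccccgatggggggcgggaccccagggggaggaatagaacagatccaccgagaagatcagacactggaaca
Of the 85 members, 71 had a promoter entry. The NRF1 motif GCGCANGCG, searched on both strands, was in 15 of the 71 (21.1%) and in 7.2% of 19005 promoters of protein-coding genes. NRF1 is a transcription factor known to bind at many nuclear genes of the respiratory chain. Ndufaf5 held 2 overlapping matches, 1 per strand, because the marked stretch reads the same on both strands. The ETS-family motif CCGGAAG was in 18 of the 71 (25.4%) and in 9.52% of all promoters. The estrogen-related receptor motif TCAAGGTCA was found at Atp5mc3 alone among members, and the YY1 motif AAGATGGCG at Atp5pf alone, against 0.305% and 0.784% of all promoters. Among the 8711 promoters of genes in the table, the NRF1 and ETS shares were 12.7% and 15.9%. The estrogen-related receptor and YY1 shares there were 0.195% and 1.39%, against 1.41% of the members for each. These matches are a description of letters in a window and of nothing else.

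Ndufaf5, which hydroxylates a core subunit early in complex I assembly, had its lowest group median in CC-Sed. Its lowest, median and highest levels were 16.9, 19.3 and 22.7 CPM in Sed, 15.8, 19.8 and 22.2 CPM in Ex, 8.26, 11.8 and 21.7 CPM in CC-Sed, and 7.48, 14.2 and 19.0 CPM in CC-Ex. Of the 12 CC rats, 11 lay below the saline median and 7 lay below every saline rat, yet the ranges overlapped. The Log2FC of both CC groups vs. both saline groups was −0.50 ± 0.15 (SE, 12 against 12 rats), or 29.2% lower, with an edgeR adjusted p of 0.0216. In the separate comparisons the Log2FC was −0.54 in CC-Sed vs. Sed (edgeR adjusted p = 0.112) and −0.45 in CC-Ex vs. Ex (edgeR adjusted p = 0.220).

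Ndufaf2 encodes a chaperone of a late complex I intermediate. It ranged over 9.31, 10.2 and 12.1 CPM (lowest, median, highest) in Sed, 7.93, 9.41 and 12.0 CPM in Ex, 6.79, 7.50 and 9.99 CPM in CC-Sed, and 6.38, 8.07 and 11.5 CPM in CC-Ex. All 6 CC-Sed rats lay below the Sed median, whereas 4 of the 6 CC-Ex rats were lower than the median Ex rat. The pooled Log2FC was −0.31 ± 0.10 (SE), or 19.2% lower, with an edgeR adjusted p of 0.0269. It was −0.42 in CC-Sed vs. Sed (edgeR adjusted p = 0.0705) and −0.20 in CC-Ex vs. Ex (edgeR adjusted p = 0.386).

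Ndufaf7 encodes a methyltransferase that acts during complex I assembly. Its lowest, median and highest levels were 10.4, 11.3 and 11.4 CPM in Sed, a narrow range, and 8.70, 11.5 and 13.4 CPM in Ex. They were 6.16, 8.34 and 13.0 CPM in CC-Sed and 5.58, 8.33 and 11.9 CPM in CC-Ex. The CC groups spread more widely, and CC-Sed 4 and CC-Ex 4 were the highest rats of their groups. The pooled Log2FC was −0.36 ± 0.12 (SE), or 21.9% lower, with an edgeR adjusted p of 0.0333.

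Ndufa4l2 is a paralog of Ndufa4 that is known as a gene induced by low oxygen. It was a low-count gene, with lowest, median and highest levels of 2.44, 3.81 and 4.84 CPM in Sed, 2.63, 3.73 and 4.08 CPM in Ex, 2.13, 2.69 and 3.60 CPM in CC-Sed, and 1.74, 2.85 and 3.78 CPM in CC-Ex. All 6 CC-Sed rats lay below the Sed median. The pooled Log2FC was −0.35 ± 0.13 (SE), or 21.7% lower, with an edgeR adjusted p of 0.0480, just inside the threshold. Ndufaf1 (adjusted p = 0.0642), Ndufs5 (adjusted p = 0.0597) and Ndufc2 (adjusted p = 0.0647), by the same edgeR test, lay just outside it.

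**Figure D1:**
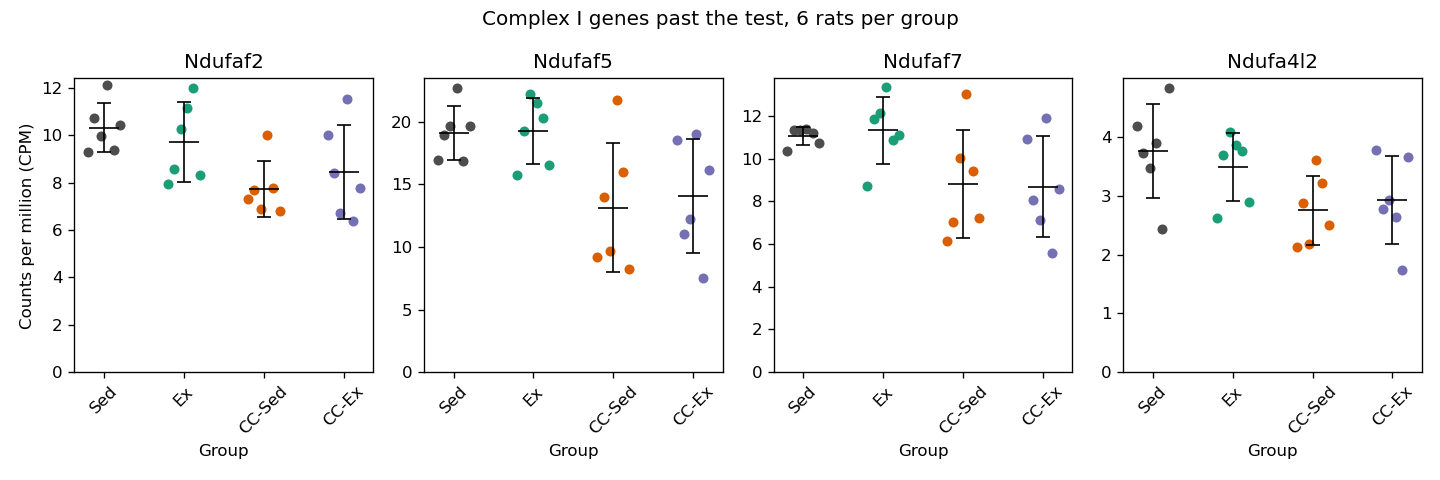
CPM of the 4 genes past the pooled test, with 1 point per rat, 6 rats per group, and black marks for the mean and SD. CC rats sat lower for each gene, and their ranges overlapped those of the saline rats.

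The 4 calls depended on which rats and terms entered. The library number, which is part of each library's name and whose technical meaning the labels do not give, was lower in the CC groups, with a median of 10 in CC-Sed and 4 in CC-Ex against 15.5 in Sed and 18 in Ex. With this number as a covariate no member was past the edgeR test, although 2516 genes were. The Log2FC then was −0.47 for Ndufaf5 (edgeR adjusted p = 0.0817) and −0.30 for Ndufaf2 (edgeR adjusted p = 0.0929). Leaving out 1 rat at a time, Ndufaf2 and Ndufaf5 were past the edgeR test in all 24 fits, Ndufaf7 in 19 and Ndufa4l2 in 7.

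The other assembly factors did not all move with these 3. Ndufaf1, a partner of early membrane-arm assembly, had a pooled Log2FC of −0.23 and Ndufaf3 of −0.15. Ndufaf4 was at 0.02, with a highest value of 54.5 CPM in CC-Ex 5 and a CC-Ex median of 26.8 CPM. Its sign turned to −0.08 under upper-quartile scaling. Ndufaf6, singled out after its values were seen, differed in pattern. Its lowest, median and highest levels were 13.7, 15.4 and 17.2 CPM in Sed, 9.31, 12.8 and 15.8 CPM in Ex, 11.2, 12.1 and 14.3 CPM in CC-Sed, and 9.86, 15.5 and 21.6 CPM in CC-Ex. The Log2FC was −0.27 in Ex vs. Sed and 0.27 in CC-Ex vs. CC-Sed. The interaction of CC and training was 0.55 ± 0.22 (SE), with an unadjusted edgeR p of 0.0190 and an adjusted p of 1.00 over all genes.

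Across the whole set, Log2FC values leaned below 0 in CC but stayed small. In the pooled comparison 78 of 85 members had a Log2FC below 0, as did 5223 of all 10851 genes. The median was −0.20 against 0.01 over all genes, and 12 members had an unadjusted p under 0.05 (background 42.4%). Pairs of members had a median correlation of 0.93 over the rats after group means were removed. The signs of the 85 members are therefore not independent of each other. In CC-Sed vs. Sed the count below 0 was 70 (5155 of all genes), with a median of −0.15. In CC-Ex vs. Ex it was 79 (5249 of all genes), with a median of −0.26. Single rats moved these medians. In CC-Sed vs. Sed the median was −0.34 without CC-Sed 4, and −0.08, −0.09, −0.10 and −0.09 without CC-Sed 1, 2, 3 and 6, with 58 to 82 members below 0. In CC-Ex vs. Ex it was −0.40 without CC-Ex 1 and −0.17 without CC-Ex 5, with 77 to 82 members below 0. The edgeR test called no member in CC-Sed vs. Sed (background 6.46%) and 4 members had an unadjusted p under 0.05 (background 28.4%). For CC-Ex vs. Ex it called no member (background 0.995%) and 4 had an unadjusted p under 0.05 (background 22.6%). DESeq2 called 1 and 0 members in these comparisons (12.3% and 6.31% of all genes), and limma-voom with sample quality weights called 4 and 2 (22.8% and 9.61% of all genes). No member was a DEG in either one, against 1.87% and 0.525% of all genes. Under upper-quartile scaling, which moved the median of all genes by less than 0.1, 80 members lay below 0 in CC-Sed vs. Sed and 82 in the pooled comparison.

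**Figure D2:**
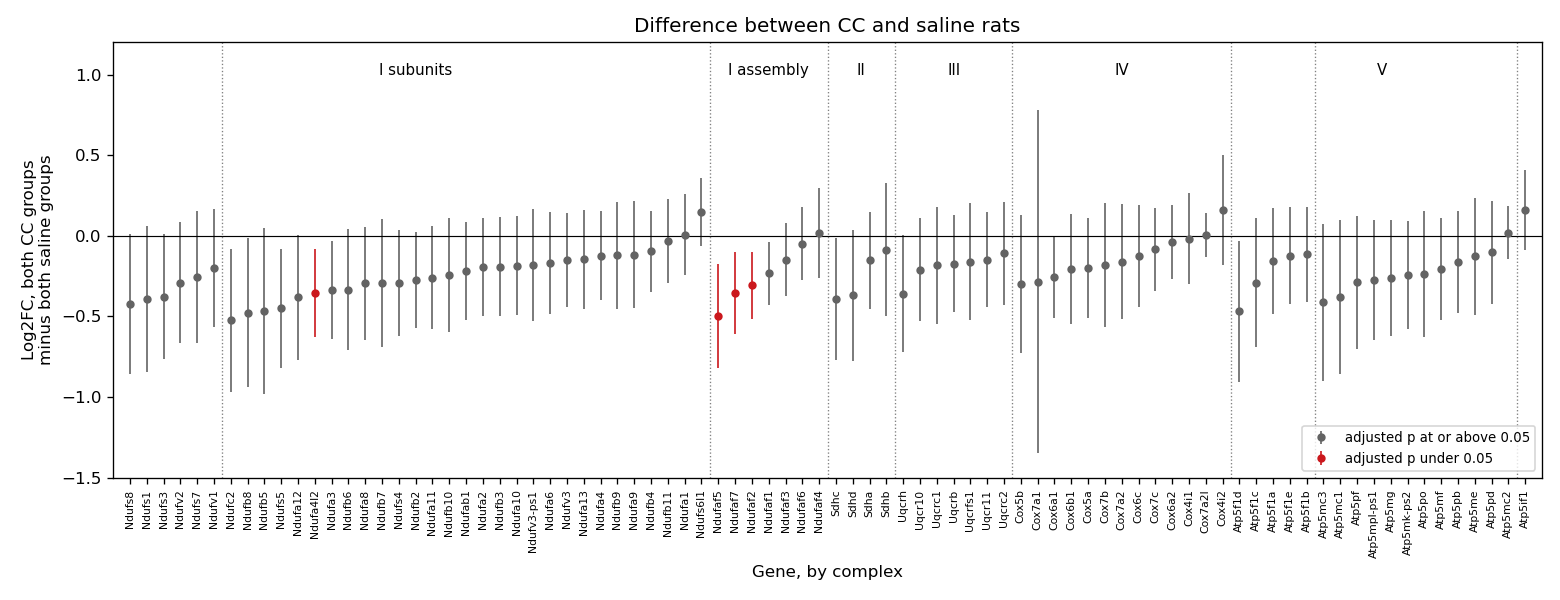
Log2FC of both CC groups minus both saline groups for 84 members, ordered by complex, with 95% intervals from the edgeR fit. Most points lie below 0, and the 4 red points are the members past the test.

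Complex I subunits had a median pooled Log2FC of −0.25, and 34 of 36 were below 0. Without Ndufa4 and Ndufa4l2 the median was again −0.25, and 32 of 34 were below 0. The 7 core subunits, which carry the flavin and iron-sulfur clusters, were all below 0, with the largest difference, −0.42, at Ndufs8. Ndufs1, the largest iron-sulfur subunit, had lowest, median and highest levels of 326, 446 and 593 CPM in Sed and 222, 286 and 749 CPM in CC-Sed. The median rat was lower in CC-Sed while the highest rat of that group exceeded every Sed rat. Its Log2FC of −0.39 had an edgeR adjusted p of 0.172. Among accessory subunits the largest difference was that of Ndufc2, a membrane-arm subunit, at −0.52 ± 0.21 (SE). Ndufc2 had lowest, median and highest levels of 82.3, 94.8 and 112.2 CPM in Sed, 71.1, 106 and 134 CPM in Ex, 40.4, 53.0 and 133 CPM in CC-Sed, and 21.7, 71.9 and 104 CPM in CC-Ex. The subunit-like Ndufs6l1, at 0.15, and Ndufa1, at 0.01, were the 2 above 0. Ndufs6l1 and the pseudogene-named Ndufv3-ps1, Atp5mk-ps2 and Atp5mpl-ps1 may share reads with near-identical copies and are uncertain.

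In complex II, the flavoprotein Sdha and the iron-sulfur protein Sdhb had pooled Log2FC values of −0.15 and −0.09. The membrane anchors Sdhc and Sdhd were at −0.39 and −0.37. Sdhc had lowest, median and highest levels of 160, 230 and 267 CPM in Sed, 192, 246 and 314 CPM in Ex, 105, 149 and 323 CPM in CC-Sed, and 80.8, 179 and 260 CPM in CC-Ex. Its edgeR adjusted p was 0.101. All 7 complex III genes were below 0, from −0.36 for the hinge protein Uqcrh (edgeR adjusted p = 0.119) to −0.11 for the core protein Uqcrc2. Uqcrh had medians of 168, 178, 111 and 131 CPM in Sed, Ex, CC-Sed and CC-Ex.

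Complex IV lay closest to 0 in the sedentary comparison, with a median Log2FC of −0.02 in CC-Sed vs. Sed and 7 of 13 genes below 0. In CC-Ex vs. Ex its median was −0.25, with 12 of 13 below 0, against a median of −0.23 for complex III. In the pooled comparison the median of complex IV was −0.16 and 11 of 13 were below 0. Cox5b, a subunit encoded in the nucleus, was lowest at −0.30, with medians of 307, 350, 209 and 231 CPM in Sed, Ex, CC-Sed and CC-Ex. Cox4i1, the general form of the regulatory subunit IV, was at −0.02, and turned to 0.02 with the library number as a covariate. Cox7a2l, which joins complexes III and IV in supercomplexes, had a pooled Log2FC of 0.00 with a 95% interval of −0.13 to 0.14.

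In complex V, Atp5f1d, the delta subunit of the central stalk, had the largest difference, at −0.47 ± 0.21 (SE, edgeR adjusted p = 0.0902). It had medians of 312, 327, 170 and 213 CPM in Sed, Ex, CC-Sed and CC-Ex, and CC-Sed 4 reached 460 CPM. The catalytic Atp5f1b was at −0.11, with a 95% interval of −0.41 to 0.18. Atp5if1, the inhibitor that blocks ATP hydrolysis, was at 0.16, with group medians of 24.9, 23.9, 28.8 and 25.7 CPM. Of the 18 genes, 16 were below 0, the exceptions being Atp5if1 and Atp5mc2, whose value of 0.02 turned to −0.05 under upper-quartile scaling.

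Within each group the members rose and fell together from rat to rat. In CC-Sed, rat 4 was the highest for 82 of 85 members and rat 1 the lowest for 58. In CC-Ex, rat 5 was the lowest for 79 and rat 1 the highest for 74. In the saline groups, Sed 5 was the lowest for 76, Ex 4 the highest for 78 and Ex 1 the lowest for 62. The median member of CC-Ex 5 lay 0.95 below the Sed mean on the log2 CPM scale, at −0.95, and that of CC-Sed 4 lay at 0.63. After each group's mean was removed, 67 of 85 members had a correlation of at least 0.9 with the median of the other members over the 24 rats, a description of values that share library, scaling and depth. The exceptions under 0.5 were Atp5if1, at −0.16, Ndufaf4, at 0.01, and Ndufaf6, at 0.20. The pattern was not particular to the members. The mean deviation of 14 citric acid cycle genes had the same extreme rats, at 0.57 in CC-Sed 4 and −0.55 in CC-Sed 1. It was 0.32 in CC-Ex 1 and −0.62 in CC-Ex 5, again the highest and lowest of that group. Shares over all genes are not given for these ranks and correlations.

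**Figure D3:**
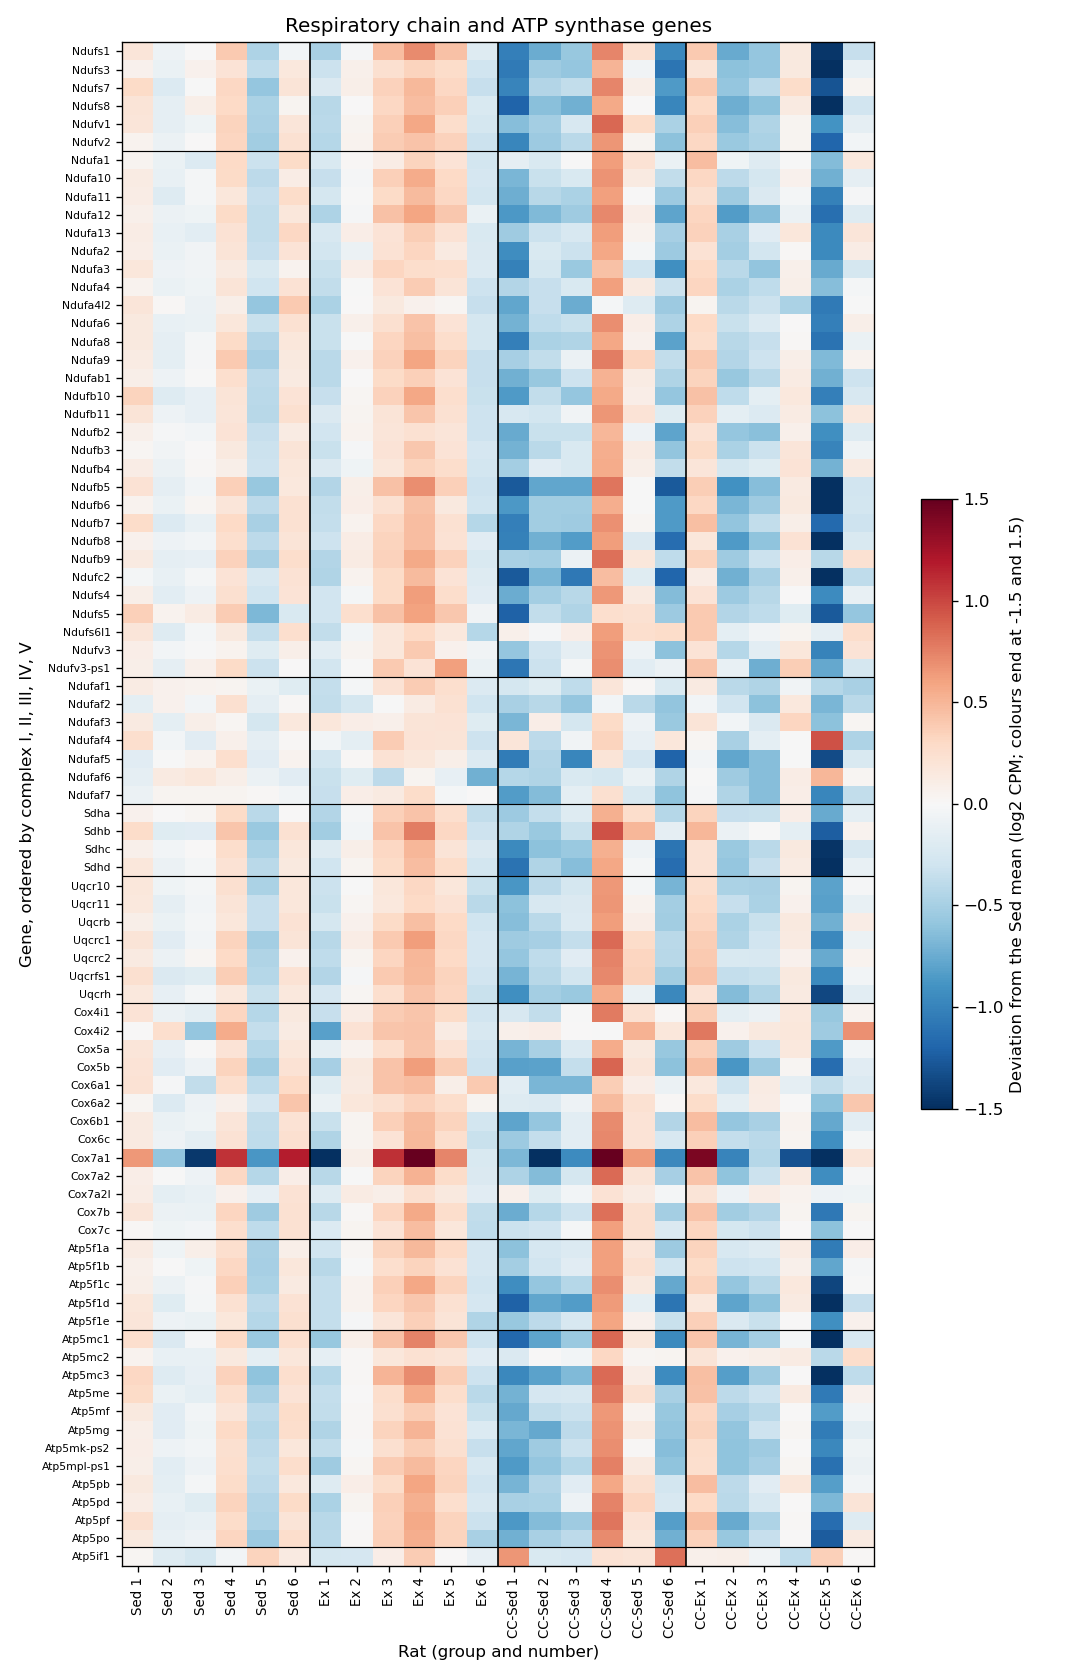
Deviation of 84 members from their Sed means, in log2 CPM, for the 24 rats; rows are ordered by complex and colours end at −1.5 and 1.5. Whole columns share a colour, as in CC-Sed 4, where 82 of all 85 members were the highest of the group, and CC-Ex 5, where 79 of 85 were the lowest.

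The spread between rats was wider in CC. The median within-group SD of the members was 0.25 (Sed), 0.33 (Ex), 0.51 (CC-Sed) and 0.46 (CC-Ex) on the log2 CPM scale, against 0.20, 0.19, 0.32 and 0.37 over all genes. The SD was larger in CC-Sed than in Sed for 81 of 85 members and for 78.7% of all genes, and larger in CC-Ex than in Ex for 73 of 85 and for 84.9% of all genes. No member separated the 12 CC rats from the 12 saline rats without overlap, and none separated the groups in CC-Sed vs. Sed or CC-Ex vs. Ex, against 0.138%, 3.61% and 1.08% of all genes.

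One rat decided much of the count of calls. Without CC-Sed 4, 30 members were past the pooled edgeR test, all lower in CC, and the median Log2FC of the members was −0.31. At the same time 35.3% of all genes were past it. Without the same rat, 5 members were past the test in CC-Sed vs. Sed, namely Atp5f1d, Ndufa3, Ndufaf2, Ndufaf5 and Ndufc2, while 15.9% of all genes were. Without CC-Ex 1, 9 members were past the pooled test, as were 32.1% of all genes. Without Ex 3, Ex 4, CC-Sed 1, CC-Sed 6 or CC-Ex 3 only Ndufaf2 and Ndufaf5 were, against 20.3% to 26.5% of all genes.

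The complexes kept close to each other within saline rats and came apart in some CC rats, a pattern noticed after the values were seen. The median deviation of complex IV minus that of complex II lay between −0.09 and 0.06 in Sed and between −0.01 and 0.08 in Ex, in log2 CPM. It lay between 0.08 and 0.52 in CC-Sed and between −0.07 and 0.58 in CC-Ex. All 6 CC-Sed rats were above the 6 Sed rats in this difference, and CC-Ex overlapped Ex. Deviations are taken from the Sed mean, so the Sed rats lie around 0 by construction. The SD was also larger in CC-Sed than in Sed for 78.7% of all genes. This pair of complexes was picked from several, and how often other pairs or other gene sets separate is not given. In CC-Ex 5 the complex II genes had a median deviation of −1.35 and the complex IV genes of −0.77. The complex II median rests on only 4 genes, and its anchors Sdhc and Sdhd had larger pooled differences than Sdha and Sdhb. In CC-Sed 6, Sdhb at 237 CPM lay within the Sed range, while the other complex II genes lay below every Sed rat.

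**Figure D4:**
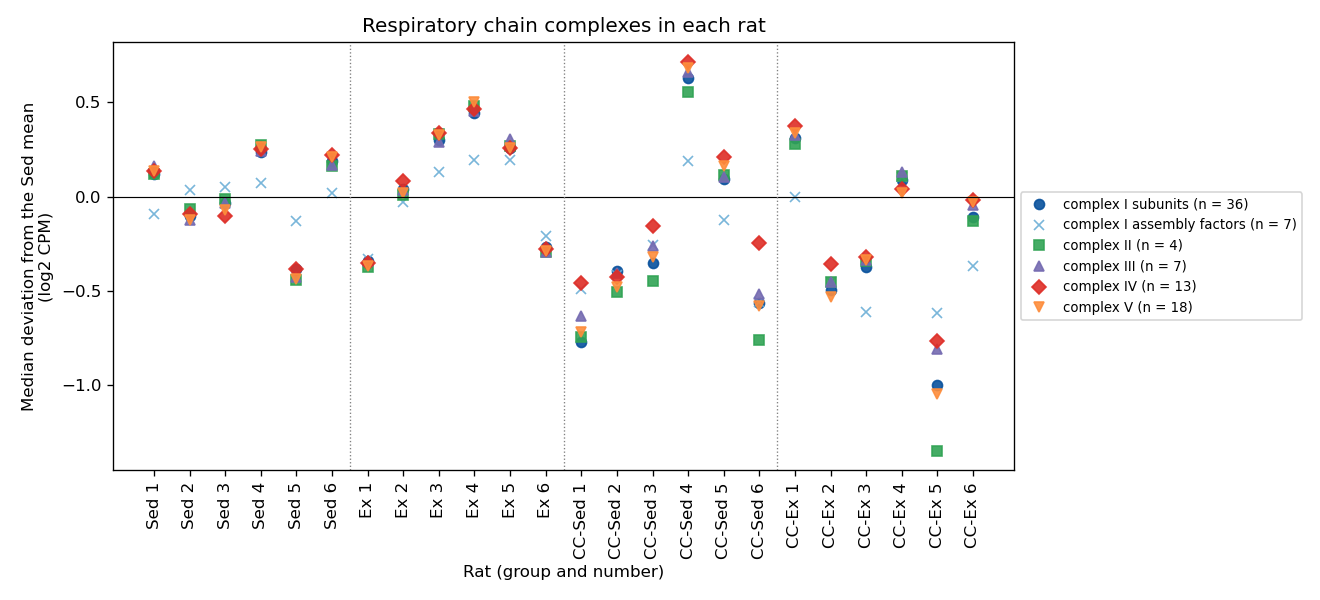
Median deviation from the Sed mean, in log2 CPM, of the members of each complex in each of the 24 rats, 1 symbol per complex. Complexes I to V lie close together in the saline groups, while the assembly factors lie apart in rats such as Sed 5 and Ex 4. The complexes spread out in CC-Sed 6 and CC-Ex 5, where complex II sits lowest.

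In each of the 4 groups the lowest and the highest rat for the median member was also the lowest and the highest for the subunits encoded by mtDNA. The order between them differed in places, as in CC-Sed 6, the second lowest of its group for the members but above 3 rats of it for the mtDNA-encoded subunits, at −0.26. The mean deviation of these subunits from the Sed mean was −1.08 in CC-Ex 5, −0.62 in Sed 5, 0.50 in CC-Sed 4 and 0.53 in Ex 4, in log2 CPM. None of the 13 was past the edgeR test in the pooled comparison, 6 had an unadjusted p under 0.05 (background 42.4%), and all 13 had a Log2FC below 0, with a median of −0.31. Mt-nd4l, a complex I subunit, had the smallest adjusted p by edgeR, 0.0542, at a Log2FC of −0.43. Mt-co1, the catalytic subunit of complex IV, was at −0.19. With the mtDNA-encoded genes left out before scaling, the same 4 nuclear members were past the pooled test, as were 27.2% of all genes.

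Slow fibre markers differed widely between rats. Their mean deviation from the Sed mean ran from −2.53 to 1.97 among Sed rats, −2.66 to 3.48 among Ex rats, −2.05 to 3.64 among CC-Sed rats and −4.66 to 3.21 among CC-Ex rats, in log2 CPM. CC-Ex 5, the lowest rat for the members, was also the lowest for these markers, and CC-Sed 4 stood at 3.42. CC-Sed 1 and CC-Sed 6, at 2.77 and 2.58, were nevertheless low for the members, whose medians there were −0.71 and −0.55. With the mean of these markers as a covariate, 8 members were past the pooled edgeR test, among them the same 4, together with Cox6a1, Ndufaf1, Ndufc2 and Ndufs5, and so were 36.1% of all genes. In the pooled comparison 17.2% of all genes were higher and 10.6% lower in CC by the edgeR test. Of 5 fibroblast markers, 3 were lower in CC by the edgeR test, and the summed level of the list ran from 389 to 2793 CPM in Sed, 818 to 4862 CPM in Ex, 470 to 1469 CPM in CC-Sed and 150 to 1542 CPM in CC-Ex. Of 4 endothelial markers 2 were higher, with summed levels of 132 to 217 CPM in Sed, 147 to 207 CPM in Ex, 167 to 250 CPM in CC-Sed and 151 to 261 CPM in CC-Ex. CC-Ex 4 and CC-Ex 5, at 151 and 163 CPM, lay within the range of Ex. Of the other lists, 2 of 3 erythroid markers were higher, 1 of 2 adipocyte markers was lower, and none of 6 leukocyte markers, 7 fast fibre markers or 5 slow fibre markers was past this test (at an unadjusted p under 0.05 these had 0, 1 and 1). The part of these cell types in the members' values was not tested.

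**Figure D5:**
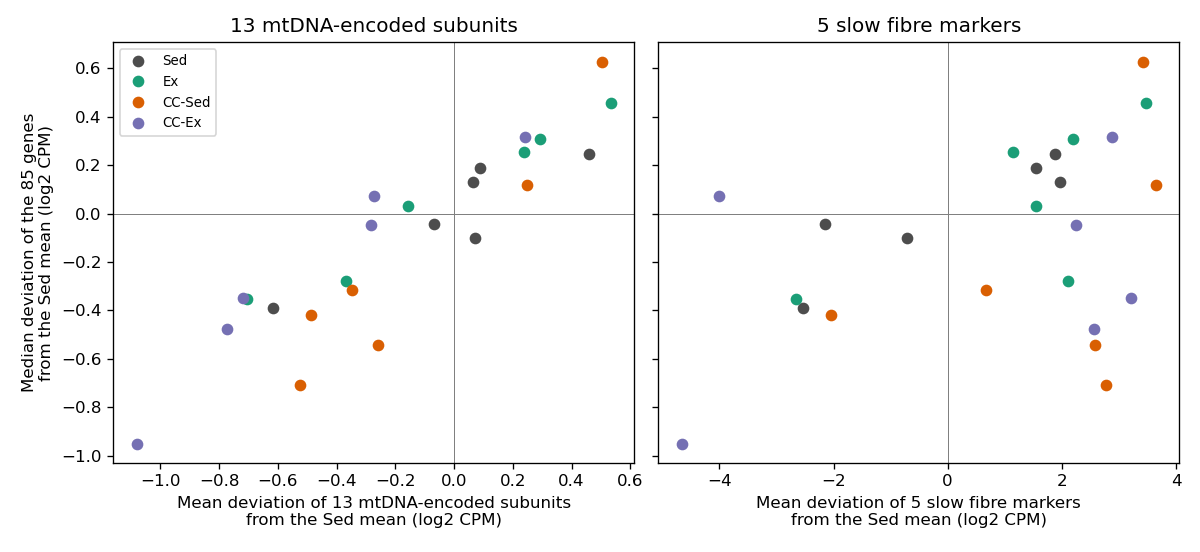
Median deviation of the 85 members from the Sed mean in each rat against the mean deviation of the 13 mtDNA-encoded subunits (left) and of 5 slow fibre markers (right), all in log2 CPM, 1 point per rat. CC-Ex 5 is lowest on all 3 measures, whereas CC-Sed 1 is low for the members at a slow fibre value of 2.77.

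Training moved no member past the test. In Ex vs. Sed 79 of 85 members had a Log2FC above 0, with a median of 0.08, and values ran from −0.27 to 0.33. Of all 10851 genes, 5144 were below 0 there. The edgeR test called no gene at all (0% of all genes), no member had an unadjusted p under 0.05 (1.09% of all genes did), and DESeq2 and limma-voom called no member either. For 84 of the 85 members the 95% interval of the Log2FC stayed between −1 and 1, and the median half-width of these intervals was 0.45. In CC-Ex vs. CC-Sed 62 members had a Log2FC below 0 (5097 of all 10851 genes), with a median of −0.04. Under upper-quartile scaling only 46 members did. Again the edgeR test called no gene (0%), and no member had an unadjusted p under 0.05 (2.16% of all genes). The interaction of CC and training called no gene (0%), and Ndufaf6 alone among members had an unadjusted p under 0.05 (1.42% of all genes). DESeq2 and limma-voom called no member in these comparisons. Intervals of this width leave room for modest differences in both directions.

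Tissue isoforms were compared as a ratio within each rat, which cancels any change that both genes share. Cox6a2 and Cox7a1 are the forms of heart and skeletal muscle, Cox6a1 and Cox7a2 the general forms, and Cox4i2 a form known from lung and low oxygen. Atp5mc1, Atp5mc2 and Atp5mc3 encode the same mature ring subunit of ATP synthase behind different import signals. None of 28 exact two-sided permutation tests (7 pairs, 4 comparisons) passed adjustment, the smallest adjusted p being 0.258. Of the 28, 4 ratios had an unadjusted exact permutation p under 0.05. The log2 ratio of Ndufa4l2 to Ndufa4 was −6.39 ± 0.17 in Sed and −6.73 ± 0.22 in CC-Sed (SD, n = 6), a difference of −0.34 (exact permutation p = 0.0195), with no CC-Sed rat above the Sed median. The ratio of Atp5mc2 to Atp5mc3 differed by 0.65 in CC-Ex vs. Ex (exact permutation p = 0.0325), as 5 of 6 CC-Ex rats lay above the Ex median. Atp5mc1 to Atp5mc2 was lower by the log2 difference of −0.57 in CC-Ex vs. Ex (exact permutation p = 0.0368). Cox4i2 to Cox4i1 was 0.32 higher in the same comparison (exact permutation p = 0.0281). Cox4i2 was a low-count gene, at 0.84 to 2.65 CPM over all rats, so its ratio is less precise. The Cox6a2 to Cox6a1 ratio differed by 0.23 in CC-Sed vs. Sed and by 0.19 in CC-Ex vs. Ex, with exact permutation p-values of 0.143 and 0.214. Cox7a1 was a low-count gene here, with medians of 2.13, 2.62, 1.07 and 1.17 CPM in Sed, Ex, CC-Sed and CC-Ex and 9.96 CPM in CC-Sed 4.

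Genes that regulate or assist the respiratory chain were read from lists of the same pathway. Of 17 regulators of mitochondrial biogenesis, 5 rose and 1 fell in the pooled comparison by the edgeR test (17.2% of all genes rose and 10.6% fell), at a median Log2FC of 0.14. Ppard, a nuclear receptor of fatty acid oxidation, rose by 0.70 ± 0.13 (SE, edgeR adjusted p = 0.000924), with means of 20.7, 19.2, 34.4 and 30.4 CPM in Sed, Ex, CC-Sed and CC-Ex. Polrmt, the mtDNA RNA polymerase, rose by 0.42 and Pprc1, a coactivator, by 0.54. Ppargc1b, a coactivator of mitochondrial genes, fell by 1.03 on the log2 scale (edgeR adjusted p = 0.0449), with means of 11.3, 13.9, 5.39 and 7.05 CPM.

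Of 31 assembly factors outside the symbol rule, 3 rose and 4 fell, against the same 17.2% and 10.6% of all genes. Acad9, which works with Ndufaf1 in complex I assembly, rose by 0.47, and the complex IV factors Cox15 and Cox16 rose by 0.23 and 0.20. Sdhaf3, Sco1, Uqcc3 and Cox19, factors of complexes II, III and IV, fell by between 0.29 and 0.35 on the log2 scale. Of 71 mitochondrial ribosomal proteins, which translate the mtDNA-encoded subunits, 3 rose and 7 fell, with a median of −0.12, so the share that fell was near that of all genes (10.6%) and the share that rose below it (17.2%). Of 14 citric acid cycle genes none passed the edgeR test, 2 had an unadjusted p under 0.05 (background 42.4%), and the median was −0.14. Ucp3, a muscle carrier of the inner membrane, rose by 1.40 ± 0.49 (SE, edgeR adjusted p = 0.0359). Among 16 electron carriers and other subunits Pdss1, which makes the tail of coenzyme Q, fell by 0.29 on the log2 scale. Among 14 genes of cristae and import Tomm40 rose by 0.23. No fit with the library number as a covariate is reported for the genes of these lists or for the regulators.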

How the data were processed

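Poly-A RNA of the left medial gastrocnemius of 24 rats was sequenced, 6 rats per group, and the labels gave the groups. The authors trimmed reads with Trim Galore, quantified them with Salmon on the Ensembl transcriptome of build mRatBN7.2 and collapsed transcripts to genes with tximport. The deposited values are these estimated counts, unscaled and whole, and none is below 10, so rounding and a filter on low counts preceded deposit. Genes such as Cox8a or Ndufs6 were not analysed here, and some single values are not reported here. Of the 10851 genes, 13 had no symbol. The members, lists and tests were chosen with earlier results of these data known.

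Counts were analysed with edgeR 4.0.16 in R 4.3.3. Filtering by expression removed 0 genes, TMM scaled the libraries, and 1 quasi-likelihood fit covered all 24 rats and 4 groups. Pooled contrasts average the training states. Adjusted p-values of edgeR are Benjamini-Hochberg over 10851 genes and those of the ratios over 28 tests, and edgeR gave every p not called a permutation p. Log2 CPM used a prior count of 2. Ratios of isoforms were tested with exact two-sided permutations in SciPy 1.17.1. Alternatives were DESeq2 1.42.0, limma-voom 3.58.1, other scalings and filters, covariates and leaving out each rat. The script for the counts was tested on simulated data. The members' smallest count was 14, and genes had a median biological coefficient of variation of 0.213, so counting error adds to the spread between rats mainly for low-count members. Named members were those past the test, the extremes of each complex in the pooled comparison and the isoform pairs; others named for their complex are given for context. Replicates were separate rats. Replicate numbers did not pair the rats. Promoters came from RefSeq (GRCr8), matched by symbol.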

Additional observations from a re-analysis of the deposited data

Results flagged for a closer look

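Among 124 sets of 6 values (the named members and isoform ratios in each group), 7 held a rat whose gap to its nearest neighbour exceeded 0.625 of the whole range on the log2 scale, and chance gives about 1 in 20. Ndufaf2 in CC-Sed 4 was highest at 9.99 CPM. In CC-Ex 5, Ndufaf4 was highest at 54.5 CPM, whereas Sdhb at 110.6 CPM, Ndufc2 at 21.7 CPM and Atp5mc2 at 159.9 CPM were lowest. Cox4i2 was highest in CC-Sed 5 at 2.19 CPM. The log2 ratio of Cox4i2 to Cox4i1 was lowest in CC-Sed 4 at −9.07.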

How the results depend on the processing

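In the pooled comparison 4 members were past the edgeR test. DESeq2 gave 7 (32.1% of all genes), limma-voom with sample quality weights 21 (36.4%), upper-quartile scaling 6 (27%), the slow fibre covariate 8 (36.1%), the library number covariate 0 (23.2%), and the added requirement of a Log2FC of at least 1 gave 0. Leaving out 1 rat gave between 2 and 30 (20.3% to 35.3% of all genes). In CC-Sed vs. Sed the count of 0 became 1 under DESeq2 (12.3%), 4 under limma-voom (22.8%) and 1 with only the rats compared (9%). It became 1 with the slow fibre covariate (13.2%) and 0 to 5 without 1 rat (1.59% to 15.9%). In CC-Ex vs. Ex limma-voom gave 2 (9.61%). The causes were not tested. Counts for the training contrasts and the interaction stayed at 0 under every alternative run.

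With the replicate number as a block, 4 members were past the pooled edgeR test, as were 25.5% of all genes. Ndufc2 was among them in place of Ndufa4l2 (Log2FC −0.35, edgeR adjusted p = 0.0687). Correlations of same-numbered rats ran from −0.59 to 0.37, so the numbers were not taken as pairs. The direction of members near 0 turned. Ndufaf4 was −0.157 under limma-voom, −0.0793 under upper-quartile scaling, −0.0284 with at least 100 counts in every rat and −0.0081 with the block. Atp5mc2 was −0.0491 under upper-quartile scaling and −0.0129 with at least 100 counts. With the library number covariate Sdhb was 0.0056, Cox4i1 0.0219, Cox6a2 0.0728 and Cox7a1 0.0321. Without 1 rat, the pooled Log2FC ran from −0.134 to 0.0626 for Ndufaf4, −0.106 to 0.0232 for Cox4i1, −0.0895 to 0.0074 for Cox6a2 and −0.0125 to 0.0417 for Atp5mc2. In CC-Sed vs. Sed the log2 ratio difference ran from −0.457 to 0.117 for Cox7a1/Cox7a2 and −0.00991 to 0.249 for Cox4i2/Cox4i1. No isoform ratio passed adjustment under any alternative run.

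Genes at low counts, such as Ndufa4l2, Cox4i2 and Cox7a1, are estimated less precisely, and the table holds no value under 10.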
